A study of Mus musculus with 24 samples.

Results

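The genes described here are those of the collagen and laminin chains, together with fibronectin (Fn1), elastin (Eln), the nidogens (Nid1 and Nid2), perlecan (Hspg2) and SPARC (Sparc). They were chosen by gene name, as protein-coding genes named Col or Lam with chain numbers plus the 6 named genes. The mouse annotation held 61 such genes. The uninjected hearts listed 49 of them among 15667 genes, and the injected hearts listed 50 among 15327. In each data set 49 passed the filter on low values and were tested, among 15598 and 14597 genes. By family, 11 of the 61 encode fibrillar collagens, 20 encode core basement membrane proteins (collagen IV, laminins, nidogens and perlecan), 27 encode other collagens, and Fn1, Eln and Sparc encode interstitial proteins that are not collagens. The 11 genes not listed in either data set were Col2a1 of the fibrillar class, Lama1 and Lamc3 of the basement membrane, and Col6a4, Col6a5, Col9a1, Col9a3, Col10a1, Col17a1, Col19a1 and Col22a1. Col20a1 was listed in the injected hearts alone, at 0.117 to 1.31 CPM, and was not tested.

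Collagens are trimers of chains that wind around each other in a triple helix, in which every chain carries a glycine at each turn of the Gly-X-Y repeat. Fibrillar collagens (types I, III and V in the heart wall) pack side by side into the fibres between muscle cells and are made mainly by fibroblasts. Basement membranes are thin sheets that surround cardiomyocytes and capillaries, in which a laminin network of α, β and γ chains and a collagen IV network are bridged by nidogens and perlecan.

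The study asked how loss of Xinβ, a protein of the intercalated disc that joins cardiomyocytes, and forced YAP activity act on the growing heart. RNA from the heart apex of mice at postnatal day 7.5 was sequenced after polyA selection in strand-specific libraries, in 6 groups of 4 libraries. The paper names the tissue as cardiac ventricles and states that every group mixed male and female samples equally. The level of Ddx3y stands for sex where it is used as a covariate below. The uninjected groups were Xinβ KO and WT, read in single-end reads of 50 bp. The injected groups, read in paired reads of 150 bp, were Xinβ KO and WT pups given subcutaneous AAV9 on postnatal day 1 that carried either GFP (Xinβ KO/GFP and WT/GFP) or aYAP (Xinβ KO/aYAP and WT/aYAP). aYAP is the human YAP protein with the S127A change, which removes a site that the Hippo kinases use to hold YAP outside the nucleus. The virus expressed it from the cardiac troponin T promoter, which is active in cardiomyocytes, rather than in fibroblasts. The Xinβ KO allele is a germline deletion with a LacZ-Neo cassette in place of part of the gene, carried in every cell of the animal on a C57BL6 background, and controls were littermates. The mouse gene of Xinβ is Xirp2, at 0.292 to 0.692 CPM in Xinβ KO and 106 to 168 CPM in WT hearts, and at no more than 0.972 CPM in any injected Xinβ KO heart.

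Values are CPM, a gene's reads relative to all reads of the library, as scaled by the authors. The libraries held 20490875 to 31154155 reads on genes in the uninjected and 15015038 to 19444404 in the injected hearts, so that 3 reads corresponded to 0.0988 to 0.197 CPM, and levels near 1 CPM rest on few reads. All 8 cardiomyocyte markers examined were listed, at sums of 52269 to 86383 CPM, whereas Myog, Myh3 and Actn3 of skeletal muscle and Col2a1 and Matn1 of cartilage were not listed. The rest of those lists were listed, with Ckm, which cardiomyocytes also express, in both data sets, Myh8 in the injected hearts, and Acan and Sox9 in both. One library stood apart in a way that touches these genes. In uninjected Xinβ KO replicate 1, genes with 9 kb or more of exon sequence lay 0.466 lower and genes under 2 kb lay 0.496 higher, on the log2 scale, than over all uninjected libraries. The difference of long and short genes was -0.962 in that library and -0.0371 to 0.247 in the other uninjected libraries, and the largest such difference in the injected hearts was -0.42, in Xinβ KO/GFP replicate 2. The tested members are long genes, with a median of 8.04 kb of exon sequence against 3.9 kb over all tested genes of the uninjected hearts. Results were therefore also computed with each library corrected for gene length. A further alternative left out uninjected Xinβ KO replicates 1 and 4, although replicate 4, at 0.176, did not share the length difference of replicate 1. Both alternatives were chosen after the data had been seen.

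The gene sequences show what separates the fibrillar from the basement membrane collagens. In fibrillar collagen genes 41.2% to 55% of the coding exons (median 46.3%) have 54 bases, a length that encodes 6 Gly-X-Y units. Exons of this kind are shown here for members with large or abundant signals in the results. Col14a1 and Col15a1 among them belong to the other collagens, and 1 collagen IV exon is added for comparison. Capitals mark the glycine codons that open each unit (GRCm38, GENCODE M21 transcripts, read in the direction of the gene). They are coding exon 8 of Col1a1 (chr11:94939904-94939957, + strand) and of Col1a2 (chr6:4515481-4515534, + strand), exon 6 of Col3a1 (chr1:45325360-45325413, + strand), exon 15 of Col5a1 (chr2:27965251-27965304, + strand), exon 36 of Col14a1 (chr15:55467960-55468013, + strand), exon 25 of Col15a1 (chr4:47292320-47292373, + strand) and exon 7 of Col4a1 (chr8:11245211-11245264, - strand).
Col1a1: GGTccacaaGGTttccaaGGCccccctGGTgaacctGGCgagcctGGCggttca
Col1a2: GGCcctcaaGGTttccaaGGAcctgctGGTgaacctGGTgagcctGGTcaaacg
Col3a1: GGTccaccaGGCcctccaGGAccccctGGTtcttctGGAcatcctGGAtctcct
Col5a1: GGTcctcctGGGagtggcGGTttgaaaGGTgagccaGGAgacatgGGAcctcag
Col14a1: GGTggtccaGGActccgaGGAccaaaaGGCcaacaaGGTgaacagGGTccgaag
Col15a1: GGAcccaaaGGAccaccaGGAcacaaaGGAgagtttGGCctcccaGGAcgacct
Col4a1: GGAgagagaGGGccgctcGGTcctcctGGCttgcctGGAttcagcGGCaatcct

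All 7 exons hold 6 glycine codons in 6 units. The fibrillar genes had 21 to 33 coding exons of 54 bases each (median 29), the collagen IV genes 1 to 3, the laminins 0 and the other collagens 0 to 28. Collagen IV chains differ in that the repeat is broken many times along the chain. Interrupted exons are shown for Col4a1 (coding exon 9, chr8:11244486-11244569, - strand), Col4a3 (exon 9, chr1:82653301-82653378, + strand) and Col4a4 (exon 12, chr1:82529565-82529645, - strand), where capitals mark the glycine codons of the reading register that holds most of them.
Col4a1: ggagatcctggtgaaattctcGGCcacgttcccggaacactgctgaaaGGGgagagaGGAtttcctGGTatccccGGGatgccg
Col4a3: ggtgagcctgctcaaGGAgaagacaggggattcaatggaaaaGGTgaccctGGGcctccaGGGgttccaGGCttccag
Col4a4: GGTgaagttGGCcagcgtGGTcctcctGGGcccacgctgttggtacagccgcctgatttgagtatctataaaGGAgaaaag

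In these exons 5 of 9, 5 of 8 and 5 of 9 units opened with glycine in that register. Over the whole chain, the longest unbroken run was 337 to 344 units in 9 of the 11 fibrillar genes, with the shorter runs of Col24a1 (216) and of Col27a1, and 39 to 66 units in the collagen IV genes. The collagen IV genes held 22 to 27 separate runs of 5 or more units, and the fibrillar genes 2 or 3. The plot of gene structure shows both measures for every collagen.

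**Figure D1:**
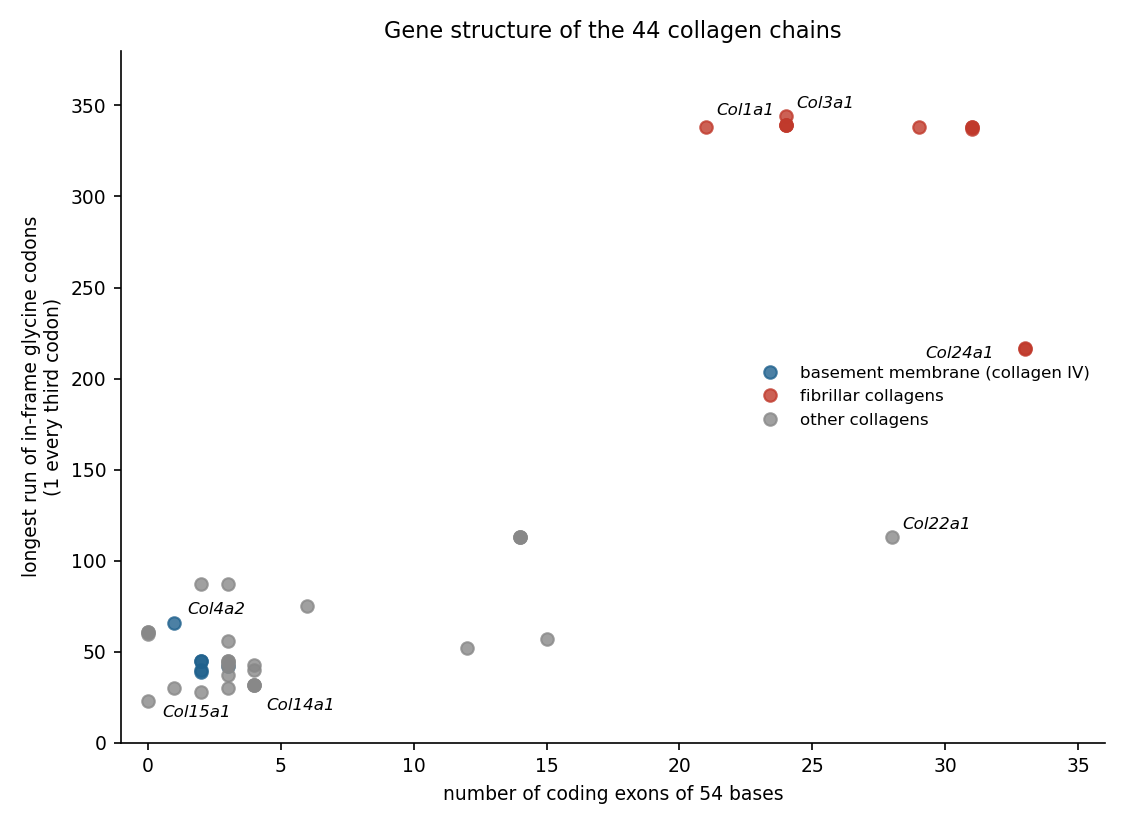
Number of coding exons of 54 bases (x axis) against the longest unbroken run of in-frame glycine codons, counted in Gly-X-Y units (y axis), with 1 point for each collagen gene of the annotation, coloured by class. Most fibrillar genes sit at the top right, with 21 or more such exons and runs of 337 units or more, whereas collagen IV genes sit at the lower left with at most 3 such exons.

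Some members lie next to each other on the chromosome. Col4a1 and Col4a2 are transcribed in opposite directions from starts that overlap by 22 bases on chromosome 8, and Col4a5 and Col4a6 diverge from starts 1308 bases apart on the X chromosome. Col3a1 and Col5a2 point towards each other 24.6 kb apart on chromosome 1. Col4a3 and Col4a4 diverge from annotated starts 71 bases apart, and because both were called in the comparisons of injected Xinβ KO hearts described below the whole spacer is shown (RefSeq promoter table, GRCm38.p6, chr1:82586850-82586920, + strand).
Col4a3 and Col4a4: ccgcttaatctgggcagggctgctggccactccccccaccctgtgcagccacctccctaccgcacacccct

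For Col3a1, the most abundant fibrillar member per length, the 250 bases before the annotated start are shown (chr1:45311288-45311537, + strand, same table), with the motif CATTCC in capitals. This is the core element to which TEAD proteins, the DNA-binding partners of YAP, are known to bind.
Col3a1: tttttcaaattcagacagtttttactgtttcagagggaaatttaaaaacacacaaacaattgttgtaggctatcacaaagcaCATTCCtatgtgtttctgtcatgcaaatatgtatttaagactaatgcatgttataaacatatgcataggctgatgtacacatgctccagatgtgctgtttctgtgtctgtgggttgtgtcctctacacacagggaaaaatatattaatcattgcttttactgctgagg

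The motif begins 168 bases before the start. CATTCC or its reverse complement GGAATG was searched on both strands in windows from 250 bases before to 50 bases after each start. It was found in 7 of the 43 members with a window, or 16.3% (Col3a1, Col4a6, Col6a2, Col18a1, Col20a1, Lamb3 and Nid1), and in 16.6% of the 27025 genes of the table, so the motif was no more frequent among the members than elsewhere.

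Levels were compared between genes after division by the length of their exons. In uninjected WT hearts Sparc, a collagen-binding protein, was highest at 434.9 ± 42.8 CPM per kb (SD, n = 4, as for all values with ±). Col3a1 at 226.9 ± 4.93, Col4a1 at 226 ± 21 and Col4a2 at 198 ± 12.8 CPM per kb followed, and Col3a1 and Col4a1 differed by less than their spread. Col1a1 at 128 ± 3.39, Hspg2 at 116 ± 6.25, Lamc1 at 99 ± 2.09 and Col6a1 at 88.5 ± 5.28 CPM per kb came next. The leading members thus came from the fibrillar and the basement membrane class alike, and the first 4 places were the same when the length of the principal transcript was used. With that length Col1a2 moved from rank 12 to rank 5 and Eln from 9 to 6, so the order below the first 4 depends on the length used. The members together took 1.79% ± 0.0621 of all CPM in WT and 1.3% ± 0.257 in Xinβ KO hearts.

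The first comparison asked what loss of Xinβ does in hearts without injected virus. Fibrillar collagens I and III were lower in Xinβ KO hearts, and so were several collagens that decorate or link fibrils, whereas most core basement membrane genes did not pass the test. Of 49 tested members, 10 were lower and 2 were higher at an adjusted p under 0.05 (limma with Benjamini-Hochberg adjustment over all tested genes). Over all tested genes 3.46% were lower and 3.23% were higher. The median log2 fold change was -0.30 over the members and 0.00 over all genes. By class, 4 of 10 fibrillar genes were lower and 0 higher (median -0.26), 1 of 18 basement membrane genes was lower and 1 higher (median -0.24), and 5 of 18 other collagens were lower and 1 higher (median -0.47). With 1 library left out, the fibrillar median lay between -0.43 and -0.14 and the basement membrane median between -0.35 and -0.08, the last without Xinβ KO replicate 1.

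Col1a1, the α1 chain of type I collagen, was measured at 509, 388.5, 443 and 631 CPM in the 4 Xinβ KO hearts and at 827, 864, 814 and 846 CPM in WT hearts. Every Xinβ KO library lay below every WT library, and the mean was 58.9% of that in WT (log2 fold change -0.79, standard error 0.14, adjusted p = 0.0143, limma). The call was lost in 5 of 21 alternatives, without any 1 WT library and with the replicate block, with adjusted p-values of at most 0.0568. Col1a2, the partner chain in the type I trimer, fell to 58.5% of WT (-0.79, adjusted p = 0.00899). The ratio of Col1a1 to Col1a2 was 1.06 ± 0.0707 in Xinβ KO and 1.06 ± 0.00693 in WT hearts. Col3a1, which forms a homotrimer in the same fibres, was at 1259, 968, 1086 and 1521 CPM in Xinβ KO and 2185, 2297, 2210 and 2218 CPM in WT hearts, again without overlap (-0.90, standard error 0.14, adjusted p = 0.00789). Col24a1, a minor fibrillar chain, fell at a low level, from 3.83 ± 0.357 to 2.44 ± 0.310 CPM (-0.49, adjusted p = 0.0410), a call that 9 of 20 alternatives lost.

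The other fibrillar genes did not pass. Col5a1 and Col5a2, whose type V trimer initiates fibrils and sets their width, differed by -0.22 (adjusted p = 0.332) and by -0.21 (adjusted p = 0.326), and Col5a3 had 0.08 (adjusted p = 0.729). Col11a1, Col11a2 and Col27a1, known mainly from cartilage, had -0.30, 0.20 and -0.05, with adjusted p-values of 0.565, 0.750 and 0.821.

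Among the basement membrane genes, Lamb3, a β chain known from the laminin of epithelial sheets, was at 31.2, 29.5, 37.5 and 18.8 CPM in Xinβ KO and at 9.38, 11.1, 11.3 and 12.8 CPM in WT hearts. All Xinβ KO libraries were above all WT libraries, at 2.62 times the mean (log2 fold change 1.28, standard error 0.20, adjusted p = 0.00789). Col4a4, a chain of the specialised collagen IV network known from the kidney filter, was at 2.38, 5.07, 4.95 and 6.08 against 8.0, 9.23, 9.71 and 8.41 CPM (-0.86, standard error 0.22, adjusted p = 0.0496). That call lies at the threshold and was lost under 12 of 21 alternatives. Its neighbour and partner Col4a3 had -0.46 (adjusted p = 0.150), with groups that did not overlap.

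The abundant chains of the vascular and cardiomyocyte basement membrane gave no call. Col4a1 was at 955, 1311, 1316 and 2145 CPM in Xinβ KO and 1779, 1736, 1788 and 1457 CPM in WT hearts. Replicate 4 was the highest of all 8 libraries and replicate 1 the lowest, so the groups overlapped (-0.30, standard error 0.22, adjusted p = 0.490). Col4a2 differed by -0.04 (standard error 0.12), Lamb1 by -0.17 (0.10), Lamb2 by 0.02 (0.09), Nid1 by -0.20 (0.21) and Hspg2 by -0.15 (0.28), all with adjusted p above 0.3. Hspg2, the heparan sulphate proteoglycan of the sheet, was at 764 CPM in Xinβ KO replicate 1 and at 1725 to 2190 CPM in the other Xinβ KO libraries, which is the library in which long genes were low. The part of gene length in this value was not tested.

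The laminin α chains, which carry the sites that cells bind, did not pass the test. Lama4, of capillaries, was at 176, 216.7, 201 and 325 CPM in Xinβ KO and 326, 340, 374 and 352 CPM in WT hearts, so that every Xinβ KO library was lower, replicate 4 only just (-0.64, standard error 0.17, adjusted p = 0.0617). Lama5, of larger vessels and epithelia, was at 110, 249, 216 and 161 against 118, 119, 115 and 127 CPM, higher in all Xinβ KO libraries but replicate 1 (0.55, standard error 0.22, adjusted p = 0.185). Lama2, the chain of the muscle fibre sheath, had -0.28 (adjusted p = 0.448) and Lama3 -0.30 (adjusted p = 0.431). Of the summed α chains per kb, Lama5 made up 31.0% ± 6.78 in Xinβ KO and 17.8% ± 0.781 in WT hearts, and each Xinβ KO library exceeded each WT library.

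Collagens outside the fibrillar and basement membrane classes made up 6 of the 12 calls. Col15a1, a multiplexin that anchors basement membranes to nearby fibrils, had the smallest adjusted p of the members, and fell from 335, 388, 401 and 368.3 CPM in WT to 185, 149, 145 and 225 CPM in Xinβ KO hearts (-1.10, standard error 0.15, adjusted p = 0.00427). Col14a1, a collagen that coats fibrils, was at 60.9, 55.1, 60.2 and 117 CPM in Xinβ KO and 181, 164, 168 and 170 CPM in WT hearts (-1.28, standard error 0.22, adjusted p = 0.0109). Replicate 4 lay far above the other Xinβ KO libraries and still below all WT libraries.

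Col6a6, of the type VI beaded filaments, fell to 52.9% of WT (-0.91, adjusted p = 0.00452) and Col16a1, another fibril-associated chain, to 60.9% (-0.71, adjusted p = 0.0177). Col8a2, of the short-chain network collagens, fell from 2.76 ± 0.211 to 1.03 ± 0.348 CPM (-0.91, adjusted p = 0.00932). Col23a1, a transmembrane collagen, rose from 3.15 ± 0.688 to 7.36 ± 2.38 CPM (0.98, adjusted p = 0.0315). The calls of Col16a1 and Col23a1 were each lost in 6 of 21 alternatives, among them leaving out any 1 WT library. Col6a1, Col6a3, Col7a1, Col8a1, Col12a1 and Col18a1 did not pass, with fold changes of -0.33, -0.59, 0.77, -0.60, -0.96 and -0.54.

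Fn1, a glycoprotein of early and wound matrix, was at 264, 416, 454 and 936 CPM in Xinβ KO and 678, 664, 773 and 646 CPM in WT hearts. Replicates 1 to 3 lay below and replicate 4 above all WT libraries (-0.57, standard error 0.32, adjusted p = 0.345). Eln, the core of elastic fibres, differed by 0.02 (standard error 0.09) and Sparc by -0.15 (0.12).

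The count of calls depended on single libraries. It was 12 with all libraries, 21 without Xinβ KO replicate 4, 7 without any 1 of the WT libraries, and 30 (5 higher and 25 lower) without Xinβ KO replicates 1 and 4, which leaves 2 libraries in that group. Shares of all tested genes called under these settings are not given here, so the changes are not read as particular to the members. Without Xinβ KO replicates 1 and 4, Col4a1 (-0.36, adjusted p = 0.0364), Fn1 (-0.67, adjusted p = 0.00226), Lama4 (-0.73, adjusted p = 0.000825) and Lamc1 (-0.37, adjusted p = 0.00347) were also lower and Lama5 (0.95, adjusted p = 0.000418) was higher. These libraries held the lowest and highest Xinβ KO values of Col4a1, Fn1 and Lama4, and for Lama5 both lay below the others. They were left out after the data had been seen, so these calls depend on that choice and are no independent support. With the correction for gene length the count was 13, and Lama5 passed (0.63, adjusted p = 0.0392).

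**Figure D2:**
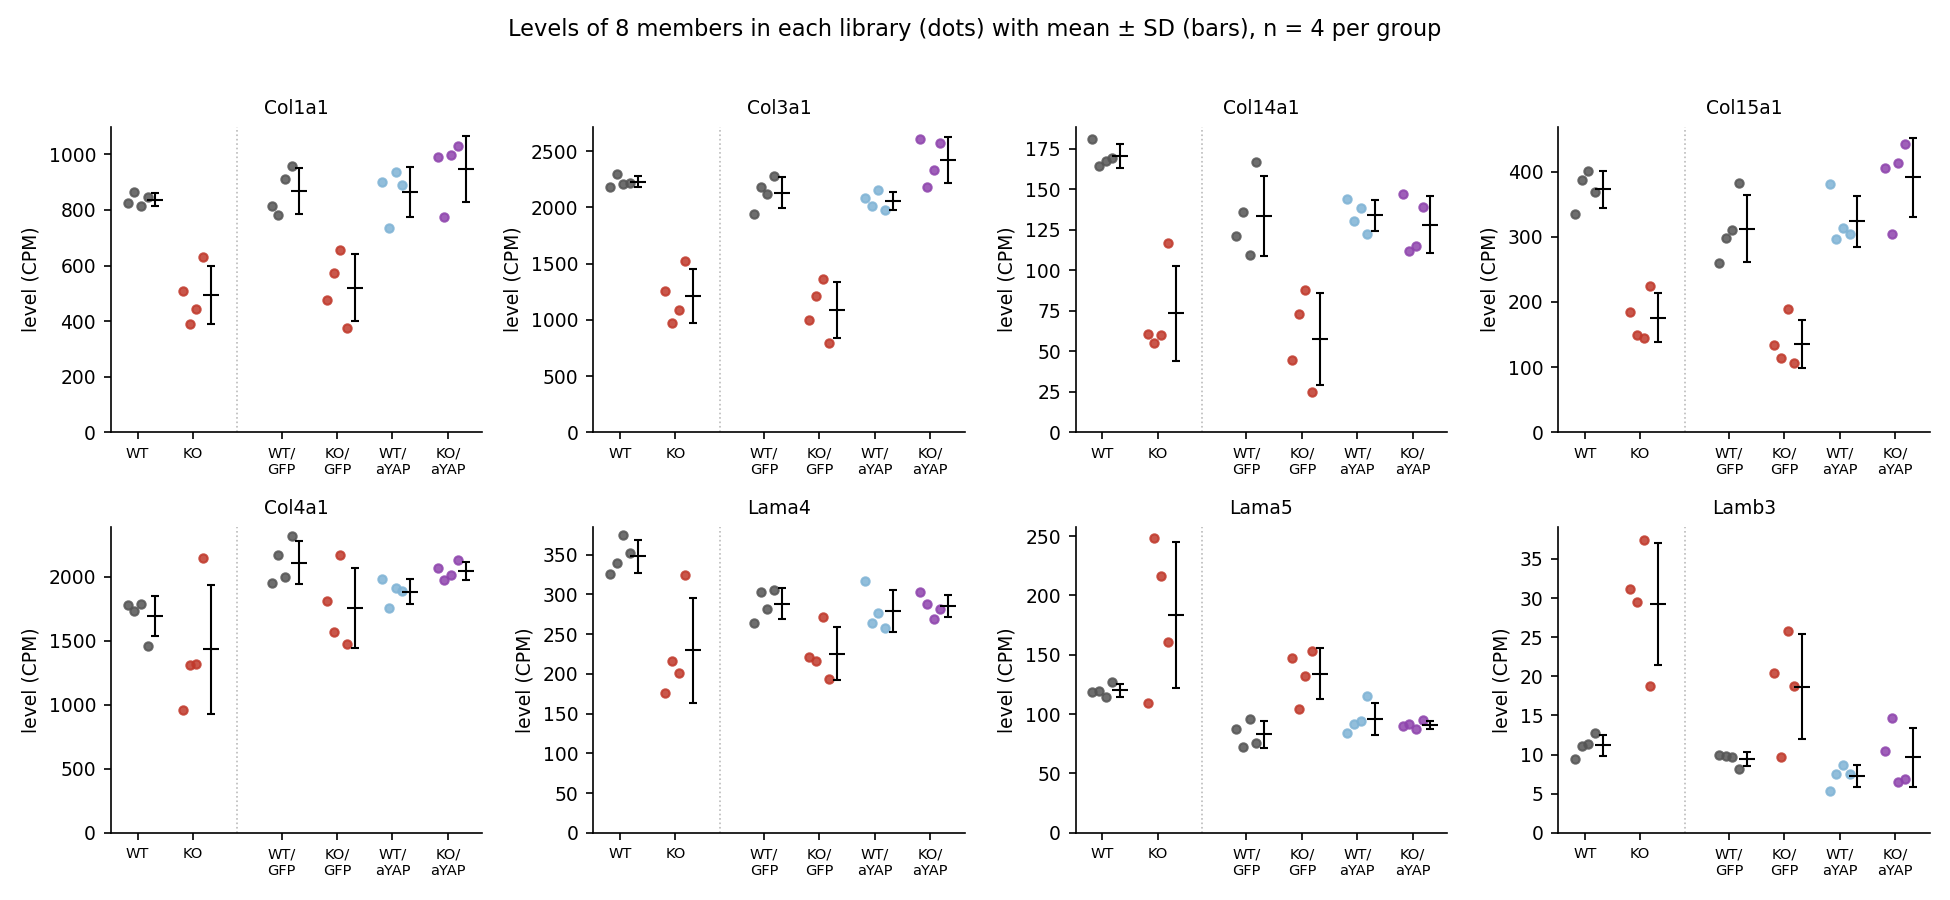
Level in CPM (y axis, from 0) of 8 members in each library (dots) of the 6 groups (x axis), with the mean and SD of each group (bar, n = 4). The dotted line parts the uninjected from the injected hearts, which were sequenced and scaled separately. Col1a1, Col3a1, Col14a1 and Col15a1 are low in Xinβ KO and Xinβ KO/GFP hearts and overlap the WT/GFP range in Xinβ KO/aYAP hearts, whereas Lama5 is high in Xinβ KO/GFP hearts.

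The second comparison repeated the question in hearts injected with the GFP control virus. With the genotypes compared under the same virus, genes of collagens I, III, V and VI were lower in the knockout, as were Col14a1 and Col15a1, whereas Lama5, Lamb3 and Col23a1 were higher. Of 49 tested members 18 were lower and 5 higher, against 7.22% lower and 6.43% higher over all tested genes. The median log2 fold change was -0.28 over the members and -0.01 over all genes. Of 10 fibrillar genes 6 were lower and 1 higher (median -0.37), of 18 basement membrane genes 3 were lower and 2 higher (median -0.11, and -0.18 to -0.03 with 1 library left out, the extremes without Xinβ KO/GFP replicates 3 and 2), and of 18 other collagens 9 were lower and 2 higher (median -0.42). Fn1, Eln and Sparc did not pass, at -0.39, -0.28 and -0.25.

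Col1a1 measured 478, 575, 655 and 374 CPM in Xinβ KO/GFP and 815, 783, 913 and 959 CPM in WT/GFP hearts, with no overlap (-0.76, standard error 0.15, adjusted p = 0.00297). Col1a2 fell to 61.6% of WT/GFP (-0.73, adjusted p = 0.00257). Col3a1 was at 996, 1208, 1364 and 791 against 1945, 2186, 2120 and 2276 CPM, a fall to 51.1% (-0.99, standard error 0.13, adjusted p = 0.000211). Within the fibrillar class the type III gene thus lay further below its control than the type I genes, and the ratio of Col3a1 to Col1a1 was 2.1 ± 0.0150 in Xinβ KO/GFP and 2.47 ± 0.217 in WT/GFP hearts, each Xinβ KO/GFP library below each WT/GFP library.

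Col5a1 (-0.38, adjusted p = 0.0278), Col5a2 (-0.36, adjusted p = 0.0301) and Col24a1 (-0.88, adjusted p = 0.00745) were the other fibrillar genes that fell, and Col5a3 did not pass (-0.17, adjusted p = 0.306). Of 29 alternatives 6 lost the call of Col5a1 and 7 that of Col5a2, both with only the 2 groups compared and when 1 of several single libraries was left out. Col11a2 rose at a low level, with 4.97, 9.02, 2.69 and 6.78 CPM in Xinβ KO/GFP and 1.91, 1.34, 2.12 and 2.85 CPM in WT/GFP hearts (1.10, standard error 0.24, adjusted p = 0.00683). Replicate 3 of the Xinβ KO/GFP hearts lay within the WT/GFP range, and with only the 2 groups compared the call was lost (adjusted p = 0.0540).

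In the basement membrane, the 2 genes that share the 71 base spacer fell together. Col4a3 measured 2.17, 1.11, 2.28 and 1.43 CPM in Xinβ KO/GFP and 4.54, 5.19, 3.64 and 4.27 CPM in WT/GFP hearts (-0.99, standard error 0.19, adjusted p = 0.00254). Col4a4 was at 3.6, 3.40, 5.03 and 2.70 against 6.34, 8.53, 6.25 and 7.89 CPM (-0.83, standard error 0.16, adjusted p = 0.00319). Both are scarce beside Col4a1, at 1813, 1570, 2173 and 1476 against 1949, 2167, 2002 and 2319 CPM, whose groups overlapped and which was not called (-0.28, standard error 0.11, adjusted p = 0.108).

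Lama4 was lower, with 221, 216, 271 and 193 CPM in Xinβ KO/GFP and 264, 303, 281 and 305 CPM in WT/GFP hearts (-0.36, standard error 0.10, adjusted p = 0.0214). Replicate 3 of the Xinβ KO/GFP hearts lay within the WT/GFP range, and 5 of 29 alternatives lost the call, namely without Xinβ KO/GFP replicate 1 or 4, without WT/GFP replicate 2 or 4, and with only the 2 groups compared (highest adjusted p = 0.0896). Lama5 rose, with 147, 104, 132 and 153 CPM in Xinβ KO/GFP against 87.3, 72.2, 96.2 and 75.6 CPM, without overlap (0.68, standard error 0.12, adjusted p = 0.00204). Lama5 made up 29.1% ± 3.22 of the α chains per kb in Xinβ KO/GFP and 17.5% ± 3.20 in WT/GFP hearts. Lamb3 rose from 9.44 ± 0.855 to 18.7 ± 6.67 CPM (0.84, adjusted p = 0.0392), with replicate 2 of the Xinβ KO/GFP hearts at 9.74 CPM and inside the WT/GFP range, and 9 of 29 alternatives lost this call. The chains Lama2, Lama3, Lamb1, Lamb2 and Lamc1 were not called, at -0.14, 0.31, -0.12, 0.10 and -0.39, and Nid1, Nid2 and Hspg2 had -0.12, -0.09 and -0.04.

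All 4 tested type VI chains fell. Col6a3 measured 74.9, 71.1, 98.5 and 70.5 CPM in Xinβ KO/GFP and 124, 142, 137 and 143 CPM in WT/GFP hearts (-0.80, standard error 0.13, adjusted p = 0.000794). Col6a1 (-0.47, adjusted p = 0.00252), Col6a2 (-0.37, adjusted p = 0.0162) and Col6a6 (-0.88, adjusted p = 0.00512) had no overlap between groups either. The call of Col6a2 was lost in 2 of 29 alternatives, without Xinβ KO/GFP replicate 4 and with only the 2 groups compared (highest adjusted p = 0.0596).

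Col15a1 was at 133, 114, 189 and 106 against 259, 298, 311 and 383.02 CPM (-1.22, standard error 0.17, adjusted p = 0.000259), and Col14a1 at 44.7, 73.0, 87.6 and 24.6 against 121, 136, 110 and 167 CPM (-1.34, standard error 0.27, adjusted p = 0.00377). These were the largest falls among the 49 members on the log2(CPM + 1) scale, which understates changes of low genes. By the ratio of group means, the scarce Col8a2 (39.4% of WT/GFP), Col4a3 (39.7%) and Col24a1 (42.8%) stood lower than Col14a1 (43.1%) and Col15a1 (43.4%). Col16a1 (-0.77, adjusted p = 0.00238), Col8a2 (-0.93, adjusted p = 0.00730) and Col12a1 (-0.81, adjusted p = 0.0444) also fell, though 13 of 29 alternatives lost the call of Col12a1, and Col8a2 lost its call with only the 2 groups compared (adjusted p = 0.0520). Col23a1 rose from 2.86 ± 0.855 to 7.70 ± 1.3 CPM (1.19, adjusted p = 0.000427), and Col7a1, the collagen of anchoring fibrils, from 2.06 ± 0.990 to 4.85 ± 1.14 CPM (0.97, adjusted p = 0.00736). Col18a1, the source of endostatin, had -0.48 and did not pass (adjusted p = 0.0774).

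The third comparison asked what aYAP in cardiomyocytes changes in the Xinβ KO heart. Among the members that rose were Col15a1, Col14a1, Col4a3, Col4a4 and Col3a1, all called lower in Xinβ KO/GFP hearts above, whereas Col24a1 and Col12a1, also called lower there, did not pass with aYAP. This comparison and the previous one share the 4 Xinβ KO/GFP libraries, so the fold changes are only set side by side. Of 49 members 19 were higher and 5 lower in Xinβ KO/aYAP than in Xinβ KO/GFP hearts, against 7.85% and 6.92% of all tested genes. The median log2 fold change was 0.29 over the members and 0.01 over all genes. Of the fibrillar genes 6 were higher and 1 lower (median 0.49), of the basement membrane genes 4 were higher and 2 lower (median 0.23), and of the other collagens 9 were higher and 2 lower (median 0.54).

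Col1a1 was at 991, 773, 999 and 1029 CPM in Xinβ KO/aYAP hearts, above every Xinβ KO/GFP library (0.89, standard error 0.15, adjusted p = 0.00102). Col1a2 was higher by 0.87 (adjusted p = 0.000729). Col3a1 was at 2610, 2181, 2335 and 2572 CPM, or 2.22 times the Xinβ KO/GFP mean (1.18, standard error 0.13, adjusted p = 3.9e-05). Col5a1, Col5a2 and Col5a3 were higher by 0.48, 0.52 and 0.50 (adjusted p = 0.00691, 0.00338 and 0.00435), each without overlap. Col11a2 was lower, at 2.03, 1.87, 2.80 and 3.09 CPM (-0.92, adjusted p = 0.0185). Replicate 3 of the Xinβ KO/GFP hearts, at 2.69 CPM, lay inside this range, and 4 of 28 alternatives lost the call (highest adjusted p = 0.0752), namely without Xinβ KO/GFP replicate 4, without Xinβ KO/aYAP replicate 1 or 2, and with only the 2 groups compared. Col24a1, called in both comparisons of genotype, had 1.92, 2.4, 1.94 and 1.49 CPM and did not pass (0.22, adjusted p = 0.489).

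Among the basement membrane genes, Col4a3 was at 6.43, 4.09, 6.69 and 4.86 CPM with aYAP (1.25, standard error 0.19, adjusted p = 0.000465) and Col4a4 at 10.2, 7.83, 10.2 and 10.6 CPM (1.21, standard error 0.16, adjusted p = 0.000185). The pair thus rose together, as they had fallen. Lamc1, the γ chain shared by most laminins, was at 737, 689, 617 and 765 CPM against 507, 336, 565 and 473 CPM (0.60, standard error 0.14, adjusted p = 0.00983). Lama4 was higher by 0.35 (adjusted p = 0.0248), with 302, 288, 269 and 282 CPM, overlapping Xinβ KO/GFP replicate 3 at 271 CPM. This call was lost in 5 of 29 alternatives (highest adjusted p = 0.0786), without Xinβ KO/GFP replicate 1 or 4, without Xinβ KO/aYAP replicate 1 or 2, and with only the 2 groups compared. Lama5, at 89.8, 91.9, 87.5 and 95.3 CPM, was lower in every library than in Xinβ KO/GFP hearts (-0.54, standard error 0.12, adjusted p = 0.00827), and Lamb3 was lower with overlapping groups (-0.88, adjusted p = 0.0310). The call of Lamb3 was lost in 7 of 29 alternatives (highest adjusted p = 0.106), with the replicate block, with only the 2 groups compared, without Xinβ KO/GFP replicate 1, 3 or 4 and without Xinβ KO/aYAP replicate 3 or 4.

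Col4a1 was at 2067, 1973, 2014 and 2134 CPM, inside the Xinβ KO/GFP range (0.23, standard error 0.11, adjusted p = 0.161), and Col4a2, Col4a5, Lamb1, Lamb2, Nid1, Nid2 and Hspg2 gave no call, with fold changes from -0.07 to 0.25. Lama2 was higher in all 4 libraries, 190 to 253 against 97.3 to 180 CPM, but did not pass (0.54, adjusted p = 0.0690).

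Col15a1 rose to 406, 304, 414 and 442 CPM (1.54, standard error 0.17, adjusted p = 2.88e-05), 2.89 times the Xinβ KO/GFP mean. Col14a1 was at 147, 112, 115 and 139 CPM (1.29, standard error 0.27, adjusted p = 0.00461). Col6a1, Col6a2, Col6a3 and Col6a6 were higher by 0.55, 0.52, 1.03 and 1.128 (adjusted p = 0.000770, 0.00190, 8.4e-05 and 0.000948). Col8a1, of the endothelial network collagens, rose to 14.0, 9.23, 18.2 and 12.8 CPM (0.89, adjusted p = 0.0126) and Col8a2 was higher by 0.68 (adjusted p = 0.0363). The call of Col8a2 was lost in 8 of 28 alternatives (highest adjusted p = 0.118), in edgeR, with the replicate block, with only the 2 groups compared, without Xinβ KO/GFP replicate 1 or 4 and without Xinβ KO/aYAP replicate 1, 3 or 4, and that of Col8a1 in 1 of 29, with only the 2 groups compared. Col16a1 rose by 0.83 (adjusted p = 0.00140), and Col23a1 (-1.22, adjusted p = 0.000318) and Col7a1 (-0.92, adjusted p = 0.00940) fell. Col12a1, at 12.5, 6.19, 5.26 and 6.41 CPM, lay above the Xinβ KO/GFP range of 2.68 to 5.15 CPM without passing (0.78, adjusted p = 0.0516). Fn1, Eln and Sparc had 0.09, 0.09 and 0.28 and were not called, so that the fibronectin gene, unlike the type I and III collagen genes, had no call in any comparison.

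**Figure D3:**
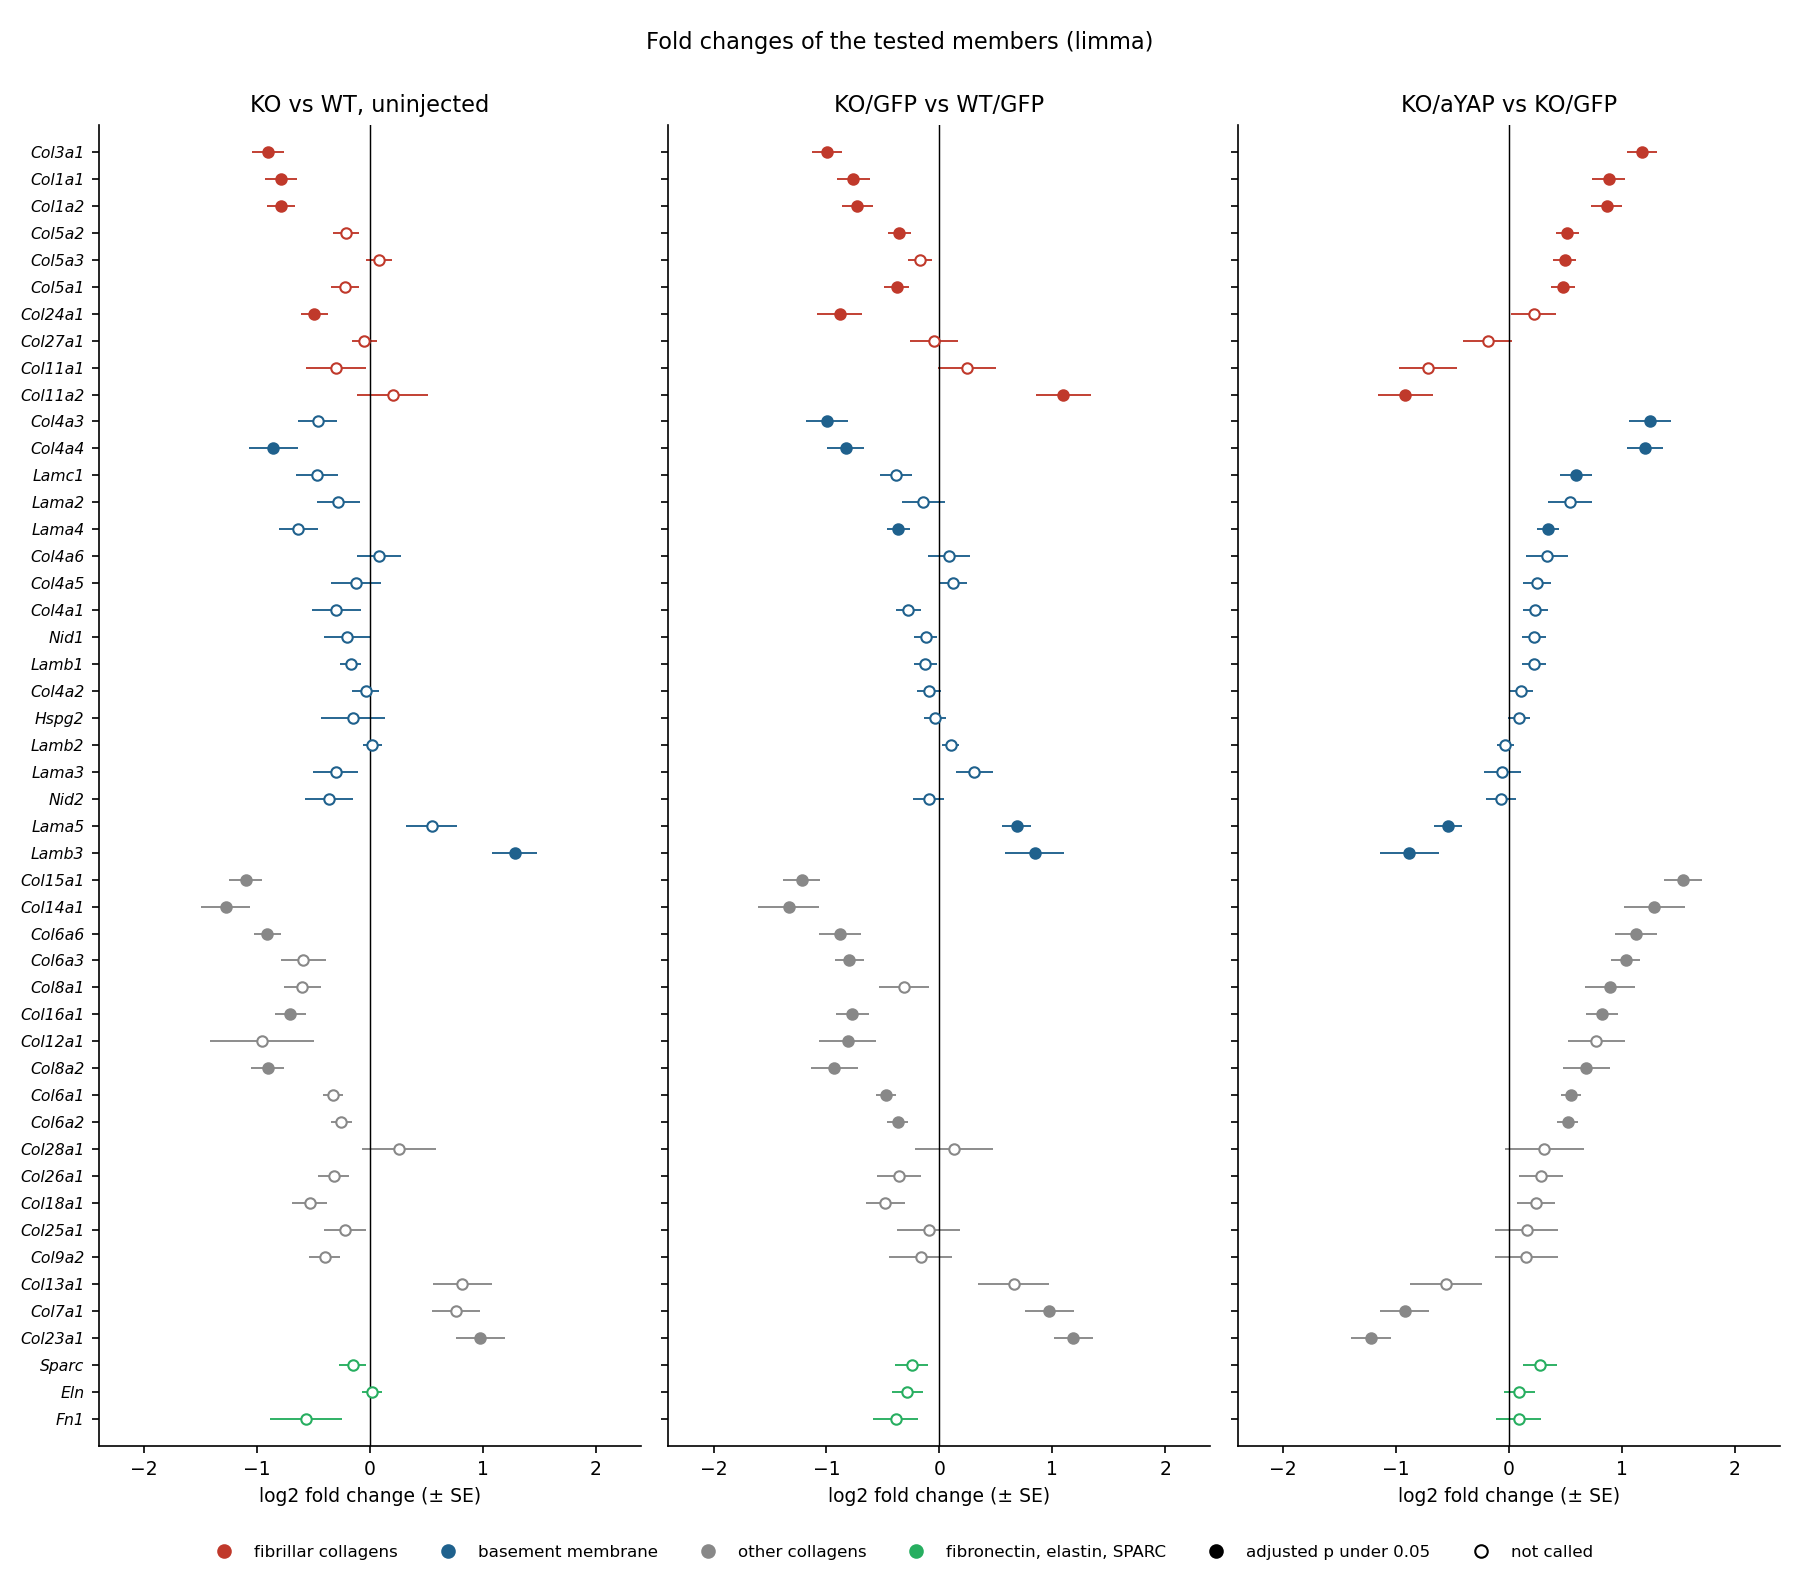
Log2 fold change (x axis, point, with its standard error as a bar) of the tested members shown (y axis, grouped by class) in Xinβ KO against WT, Xinβ KO/GFP against WT/GFP and Xinβ KO/aYAP against Xinβ KO/GFP hearts. Filled points had an adjusted p under 0.05. Red fibrillar and grey collagen points such as Col3a1 and Col15a1 lie left of 0 in the first panels and right of 0 in the last. From left to right, the medians were -0.26, -0.37 and 0.49 for the red fibrillar points. They were -0.24, -0.11 and 0.23 for the blue basement membrane points. The last panels share the Xinβ KO/GFP libraries.

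Xinβ KO/aYAP hearts were then set against WT/GFP hearts, which differ in both genotype and virus. None of the 49 members was called by limma, edgeR or DESeq2, and 6 had an unadjusted p under 0.05 in limma and 5 in each of the other tools. Over all tested genes limma called 0.0206% in either direction by adjusted p. The share of all tested genes under the unadjusted threshold is not given here, so the counts by unadjusted p have no background. Col1a1 differed by 0.12 (standard error 0.15), Col3a1 by 0.18 (0.13), Col15a1 by 0.32 (0.17), Col14a1 by -0.05 (0.27) and Lama5 by 0.14 (0.12). These values do not show that the levels were equal, and the class medians were 0.13 for fibrillar and 0.12 for basement membrane genes. Col24a1, at 1.49 to 2.4 against 2.90 to 4.54 CPM, had the largest difference among fibrillar genes on the log2(CPM + 1) scale (-0.66, standard error 0.20, adjusted p = 0.678).

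In WT hearts, aYAP gave no called member. None of 49 passed in limma, edgeR or DESeq2, and 2 had an unadjusted p under 0.05 in each, without a share over all tested genes beside it. By adjusted p, limma called 0.0% of all tested genes, where DESeq2 called 11 genes and edgeR 0. The fold changes of members lay between -0.35 (Lamb3) and 0.50 (Lama3), with a median of 0.02. Col1a1 was at 899, 735, 936 and 890 CPM in WT/aYAP hearts (-0.01, standard error 0.15) and Col3a1 at 2086, 2010, 2155 and 1973 CPM (-0.05, standard error 0.13), both inside or overlapping the WT/GFP range.

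Between Xinβ KO/aYAP and WT/aYAP hearts 1 of 49 members was called, against 0.0411% of all tested genes. It was Col5a3, the type V chain with the most restricted expression, at 61.2, 51.5, 52.2 and 67.3 CPM in Xinβ KO/aYAP and 39.2, 37.5, 33.0 and 38.9 CPM in WT/aYAP hearts (0.62, standard error 0.10, adjusted p = 0.0357). The groups did not overlap, but the call was lost with the correction for gene length and when any 1 of the WT/aYAP libraries was left out. It was also lost with the replicate block, quantile normalization, the Ddx3y covariate, only the groups compared and without the limma trend.

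Whether the effect of aYAP differed by genotype was tested directly, as an interaction of genotype and virus over all 16 injected libraries. It was called for 19 members, 15 with a more positive and 4 with a more negative effect in Xinβ KO than in WT hearts, against 3.8% and 3.77% of all tested genes. Of the fibrillar genes 6 were more positive and 1 more negative, of the basement membrane genes 3 and 1, and of the other collagens 6 and 2. Among the called members, the largest differences of effect on the log2(CPM + 1) scale were 1.49 for Col15a1 (standard error 0.24, adjusted p = 0.00189), 1.36 for Col4a3 (0.26, adjusted p = 0.00686), 1.23 for Col3a1 (0.19, adjusted p = 0.00154) and 1.21 for Col6a3 (0.18, adjusted p = 0.00128). On the other side stood Col23a1 with -1.38 (0.25, adjusted p = 0.00383), Col7a1 with -1.32 (0.31, adjusted p = 0.0188), Col11a2 with -1.32 (0.34, adjusted p = 0.0305) and Lama5 with -0.75 (0.18, adjusted p = 0.0188). Col14a1 just missed the threshold (1.27, standard error 0.38, adjusted p = 0.0528), and Lamb3 did not pass (-0.53, adjusted p = 0.404).

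**Figure D4:**
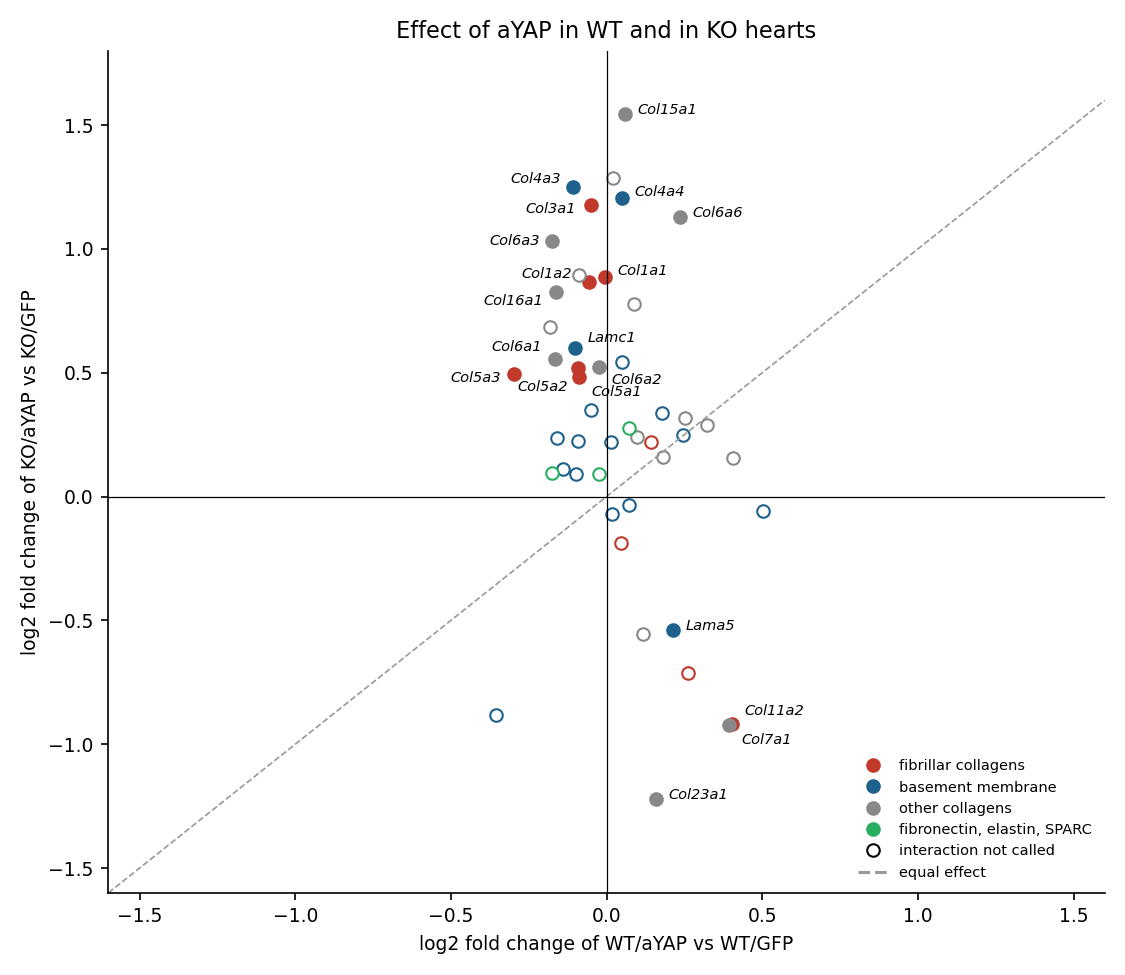
Log2 fold change with aYAP in WT hearts (x axis) against that in Xinβ KO hearts (y axis) for tested members, coloured by class. Filled, named points had a called interaction, open points did not, and the dashed line marks equal effects. Values along x stay within -0.35 and 0.50, whereas those along y run from -1.22 (Col23a1) to 1.54 (Col15a1).

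Summed over their class, the fibrillar collagens took 0.464% ± 0.0103 of all CPM in WT and 0.254% ± 0.0444 in Xinβ KO hearts, with no overlap. In the injected hearts they took 0.442% ± 0.0359 in WT/GFP, 0.431% ± 0.0242 in WT/aYAP, 0.239% ± 0.0459 in Xinβ KO/GFP hearts, and they took 0.500% ± 0.0452 in Xinβ KO/aYAP hearts. Basement membrane genes took 0.833% ± 0.0337 in WT and 0.684% ± 0.176 in Xinβ KO hearts, and 0.722% ± 0.0772, 0.680% ± 0.0269, 0.608% ± 0.0965 and 0.754% ± 0.0402 in the injected groups in the same order. These sums are led by Col3a1, Col1a1 and Col1a2 on one side and by Col4a1, Hspg2 and Col4a2 on the other, and the basement membrane sums of Xinβ KO and WT hearts overlapped.

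Ratios of single genes within each library set a member of each class against the other. Col3a1 was 0.898 ± 0.285 times Col4a1 in Xinβ KO and 1.33 ± 0.137 times in WT hearts, where the highest Xinβ KO library (1.32) overlapped the WT range. It was 0.621 ± 0.107 in Xinβ KO/GFP, 1.01 ± 0.0335 in WT/GFP, 1.09 ± 0.0507 in WT/aYAP and 1.18 ± 0.0672 in Xinβ KO/aYAP hearts, and the highest Xinβ KO/GFP library, at 0.770, lay below all other injected libraries. The ratio of Col1a1 to Col4a1 overlapped in both comparisons of genotype. It was 0.294 to 0.533 in Xinβ KO and 0.455 to 0.580 in WT hearts, and 0.254 to 0.366 in Xinβ KO/GFP and 0.361 to 0.456 in WT/GFP hearts. When instead every tested gene of a class counted equally, as the mean log2(CPM + 1) of the fibrillar minus that of the basement membrane genes, 1 library in each Xinβ KO control group decided whether the groups overlapped. The difference was -0.867 ± 0.240 in Xinβ KO and -0.676 ± 0.0632 in WT hearts, with Xinβ KO replicate 1 at -0.519 and the other Xinβ KO libraries at -1.07 to -0.934, below the lowest WT library at -0.760. It was -0.620 ± 0.328 in Xinβ KO/GFP and -0.411 ± 0.0772 in WT/GFP hearts, with Xinβ KO/GFP replicate 2 at -0.131 and the other libraries of its group at -0.823 to -0.745, below the lowest WT/GFP library at -0.511. Without these libraries the means were -0.984 in Xinβ KO and -0.783 in Xinβ KO/GFP hearts. They are the libraries in which long genes were lowest, and the part of gene length in their values was not tested. On this measure Xinβ KO/aYAP hearts, at -0.579 ± 0.0877 (-0.711 to -0.528), lay below every WT/GFP library and every WT/aYAP library (-0.456 to -0.365), whereas on the ratio of Col3a1 to Col4a1 they lay above every WT/GFP library.

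**Figure D5:**
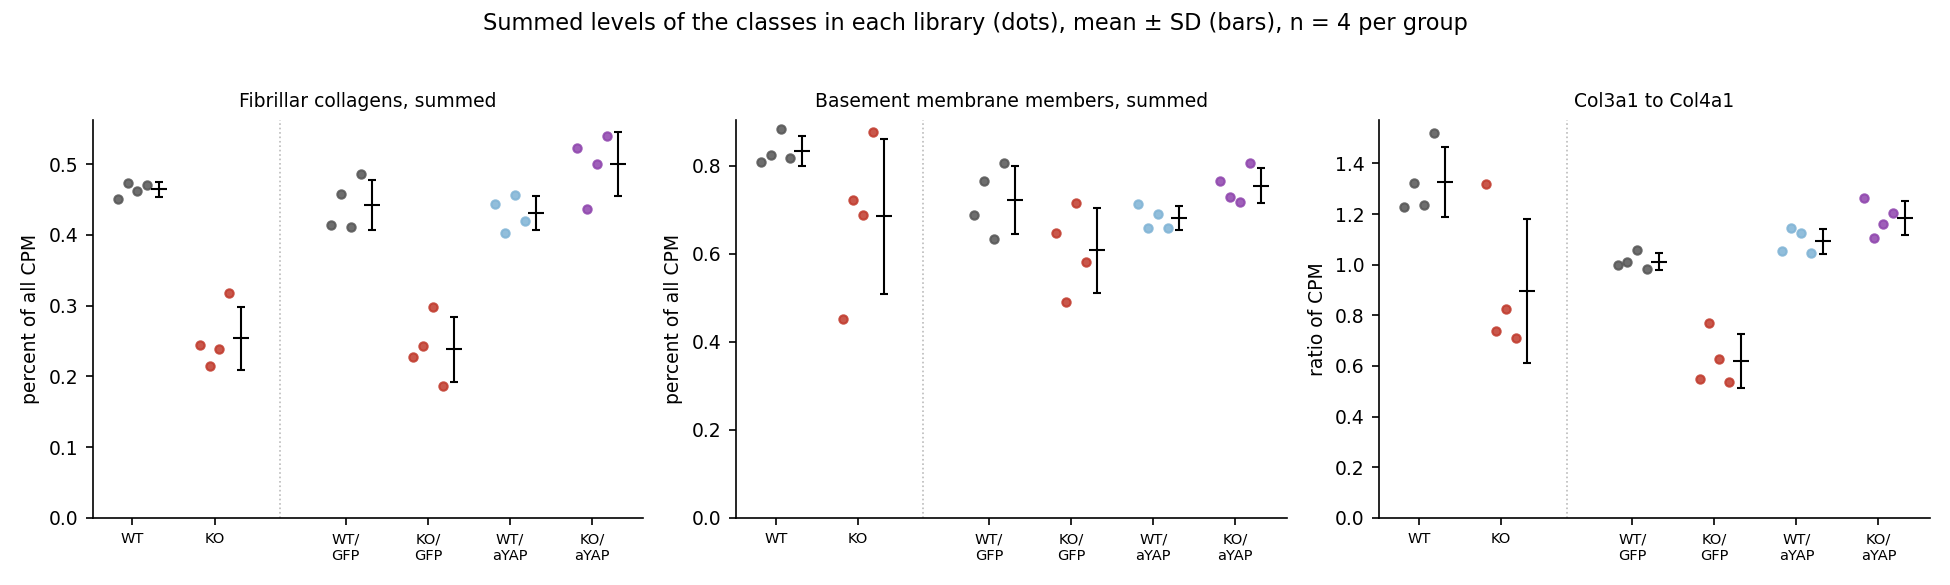
Summed fibrillar collagens and summed basement membrane genes as a percent of all CPM, and the ratio of Col3a1 to Col4a1 (y axes, from 0), in each library (dots) of the 6 groups (x axis), with mean and SD (bars, n = 4). Fibrillar sums of Xinβ KO and Xinβ KO/GFP hearts lie below all other libraries, whereas the basement membrane sums of Xinβ KO and WT hearts overlap.

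Genes that make and cross-link collagen were followed by a list of 32, of which 31 were tested. In Xinβ KO hearts 2 were higher and 2 lower, in the GFP-injected Xinβ KO hearts 3 higher and 6 lower, and in Xinβ KO/aYAP against Xinβ KO/GFP hearts 7 higher and 1 lower. As shares of the 31, these were 6.45% and 6.45%, 9.68% and 19.4%, and 22.6% and 3.23%, to be read against 3.23% and 3.46%, 6.43% and 7.22%, and 7.85% and 6.92% over all tested genes, so the higher calls in the comparisons of genotype rest on few genes. Pcolce2, which speeds the trimming of procollagen, had log2 fold changes of -0.58, -1.07 and 1.08 in these comparisons (adjusted p = 0.0188, 0.000360 and 0.000293). Colgalt2, which adds galactose to collagen, had -0.59, -0.77 and 0.87, all called. Loxl1 and Loxl2, which cross-link fibres, had -0.52 and -0.48 with the GFP virus and 0.56 and 0.55 with aYAP. P3h2, a prolyl 3-hydroxylase known to act on collagen IV, moved the other way (0.96, 0.64 and -0.65, all called), and Fkbp10, a procollagen chaperone, was higher in both comparisons of genotype (0.51 and 0.38).

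Of 24 matrix receptor genes 23 were tested, with 1 higher and 2 lower in Xinβ KO, 3 higher and 6 lower with the GFP virus, and 7 higher and 2 lower with aYAP. These were 4.35% and 8.70%, 13.04% and 26.1%, and 30.4% and 8.70% of the 23, against the same shares over all tested genes. Itga1, the α chain of a collagen-binding integrin, had -0.96, -0.85 and 0.83, all called. Ddr2, a kinase that binds fibrillar collagen, had -0.48 (adjusted p = 0.138), -0.53 (adjusted p = 0.00335) and 0.74 (adjusted p = 0.000308). Sdc4, a syndecan of cell-matrix contacts, had 0.72, 0.87 and -0.63, all called, and Itgb3 0.66 (adjusted p = 0.336), 0.94 (adjusted p = 0.0141) and -0.88 (adjusted p = 0.0188).

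The fibroblast and macrophage markers that were called moved in the direction of the type I and III collagen genes, and the called endocardial markers in the opposite direction. The counts below are to be read against the shares of all tested genes, which were 3.46% lower and 3.23% higher in the uninjected hearts, 7.22% lower and 6.43% higher with the GFP virus, and 7.85% higher and 6.92% lower with aYAP. Of 10 fibroblast markers 3 were lower in Xinβ KO, 7 lower with the GFP virus, and 7 higher with aYAP, each against its control as above. Their summed level was 1344 to 1553 CPM in Xinβ KO and 1908 to 1984 CPM in WT hearts, 1112 to 1260 CPM in Xinβ KO/GFP, 1529 to 1837 CPM in WT/GFP, 1725 to 1748 CPM in WT/aYAP and 1743 to 1992 CPM in Xinβ KO/aYAP hearts. Lum and Dpt, which bind collagen fibrils, had log2 fold changes of -0.74 and -0.76 in Xinβ KO, -0.80 and -1.13 with the GFP virus, and 1.08 and 1.23 with aYAP, all called. All 10 markers were listed and Pdgfra, Tcf21 and Gsn were called in none of these comparisons. Gsn had values of the opposite sign, 0.67 (adjusted p = 0.139), 0.41 (0.175) and -0.23 (0.462).

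Of the macrophage markers 5 of 6 could be tested, and 4 were lower in Xinβ KO, 5 lower with the GFP virus, and 5 higher with aYAP, with summed levels of 19.9 to 31.4 CPM in Xinβ KO against 50.4 to 65.3 CPM in WT, 22.0 to 44.7 CPM in Xinβ KO/GFP against 66.7 to 107.9 CPM in WT/GFP, and 65.6 to 88.6 CPM in Xinβ KO/aYAP hearts. Of 4 endocardial markers 3 (Npr3, Plvap and Vwf) moved as Lamb3 and Col23a1 did, higher in both Xinβ KO control groups and lower with aYAP, with sums of 268 to 435 CPM in Xinβ KO against 195 to 210 CPM in WT, and 202 to 499 CPM in Xinβ KO/GFP against 144 to 198 CPM in WT/GFP and 154 to 205 CPM in Xinβ KO/aYAP hearts. Of 8 endothelial markers 1 was lower in Xinβ KO, 3 were lower with the GFP virus, and 2 were higher and 1 lower with aYAP. Their sums were 1277 to 1567 CPM in Xinβ KO and 1657 to 1844 CPM in WT hearts. In injected hearts they were 1362.5 to 1525.5 CPM in Xinβ KO/GFP, 1577 to 1729 CPM in WT/GFP and 1590 to 1675.5 CPM in Xinβ KO/aYAP hearts. The endothelial sums thus did not overlap in any of the comparisons. Of 8 mural markers 1 was lower in each of the first 2 comparisons and 3 were higher with aYAP. Mural sums overlapped in both comparisons of genotype, at 1943 to 2407 CPM in Xinβ KO and 2049 to 2416 CPM in WT hearts. They were 1580 to 2052 CPM in Xinβ KO/GFP, 2047 to 2284 CPM in WT/GFP and 2370 to 2842 CPM in Xinβ KO/aYAP hearts. In these lists 1 gene of 8 makes 12.5%, so that counts of 1 or 2 rest on few genes. Of 8 cardiomyocyte markers 2 were higher in Xinβ KO, 2 higher with the GFP virus, and 2 lower with aYAP. The part of these cell types in the results on collagens and laminins was not tested, and in RNA from whole tissue fewer cells of a type and less RNA per cell cannot be told apart.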

How the data were processed

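RNA from 24 mouse heart apex samples was sequenced, 4 in each of 6 groups. The submitters' processing notes name cutadapt 2.3, FastQC, HISAT2 2.1.0, StringTie 1.3.4, edgeR 3.26.1 and the GRCm38 build. The deposited values, treated here as a signal, are CPM (a gene's read count relative to the library total) that the authors scaled with edgeR, in 1 table for the uninjected and 1 for the injected hearts. They are not raw counts, but each gene's value is a whole multiple of what 1 read is worth in that library, so reads could be recovered (100% of values whole within 0.1 read). edgeR on these reads called 956, 1904 and 2103 genes in the first 3 comparisons. The test had been planned for plain CPM, and the tables hold CPM with scaled library sizes.

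Symbols and exon lengths came from GENCODE M21 by Ensembl ID. Genes above 1 CPM in at least 4 of 8 uninjected or 8 of 16 injected libraries were tested on log2(CPM + 1) with limma 3.58.1 (R 4.3.3), using its mean-variance trend, and p-values were adjusted by Benjamini-Hochberg over all tested genes at 0.05. Changes of low genes come out too small on this scale. The 16 injected libraries shared 1 model, and the tables were never fitted together. edgeR 4.0.16 and DESeq2 1.42.0 on recovered reads, other pseudocounts, filters and scalings, sample weights, a replicate block, Ddx3y as a covariate, only the groups compared and leaving out each library were alternatives. A correction for exon length in 20 bins, leaving out uninjected Xinβ KO replicates 1 and 4, and principal-transcript lengths were added after seeing the data. The fits were tested on simulated data. Tables and plots used Python 3.11.15, pandas 2.3.3, numpy 2.4.6 and matplotlib 3.10.9.

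Members named in the text are a list by class plus every member called in any of the 7 comparisons, with values per library for those that changed most in each class and for Col1a1, Col3a1, Col4a1, Lama4, Lama5 and Fn1. The values of 1 member, which is counted among the genes tested, are not reported here. Other genes came from lists of collagen biosynthesis, receptors and cell type markers, and Xirp2. The members and lists were chosen with earlier results of these data known. Nothing in the sources says that replicates came from separate litters, so p-values measure the spread between these samples. No 2 libraries of a group agreed within sampling noise. Floors of 3 reads cover counting error only.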

Additional observations from a re-analysis of the deposited data

Results flagged for a closer look

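Single libraries lay far from the other 3 of their group in 23 of 294 sets of values (7.82%), where chance gives about 1 in 20, and 3 of the 23 were in uninjected Xinβ KO replicate 4. In that library Col14a1 was at 117.2 CPM (others 55.1 to 60.9), Col18a1 at 104.5 CPM (others 65.0 to 69.8) and Col11a2 at 0.801 CPM. Nid1 was low in Xinβ KO replicate 1 (241 CPM against 462 to 490.5) and in Xinβ KO/GFP replicate 2 (281 CPM), the libraries in which long genes were lowest, and Lama2 in the latter was at 97.3 CPM. The part of gene length was not tested. In WT hearts Col4a1 was at 1457 CPM in replicate 4 and Lamb2 at 363.8 CPM in replicate 1.

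Xinβ KO/aYAP replicate 2 was the lowest of its group for Col1a1 (773 CPM), Col1a2 (768 CPM) and Col4a4 (7.83 CPM), and its fibrillar minus basement membrane difference was -0.711. That difference was -0.131 in Xinβ KO/GFP replicate 2. The ratio of Col1a1 to Col1a2 was 0.961 in WT/GFP replicate 2 and 1.005 in WT/aYAP replicate 2. Among low members, Col12a1 was at 4.35 CPM in WT/GFP replicate 3 and 12.5 CPM in Xinβ KO/aYAP replicate 1, Col8a1 at 10.6 CPM in WT/GFP replicate 1, Lamb3 at 8.16 CPM in WT/GFP replicate 4 and Col11a1 at 5.71 CPM in WT/aYAP replicate 1. Col5a3 was at 45.1 CPM and Col6a3 at 98.5 CPM in Xinβ KO/GFP replicate 3, and Nid2 at 166 CPM in WT/aYAP replicate 1.

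The effect of aYAP differed between genotypes for 19 members by the interaction test (limma, adjusted over all genes). On the log2 scale the effect in Xinβ KO minus that in WT hearts was -1.38 for Col23a1, -1.32 for Col11a2, -1.32 for Col7a1 and -0.75 for Lama5. It was 1.49 for Col15a1, 1.36 for Col4a3, 1.23 for Col3a1, 1.21 for Col6a3, 1.16 for Col4a4, 0.99 for Col16a1, 0.92 for Col1a2, 0.89 for Col1a1 and 0.89 for Col6a6. It was 0.79 for Col5a3, 0.72 for Col6a1, 0.70 for Lamc1, 0.61 for Col5a2, 0.57 for Col5a1 and 0.55 for Col6a2.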

How the results depend on the processing

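No called member changed sign in the first 3 comparisons under any alternative run, whereas members that were not called did, such as Hspg2 in Xinβ KO hearts (-0.37 to 0.17) and Col11a1 with the GFP virus (-0.12 to 0.41). Of the calls, 7 of 12 in Xinβ KO against WT, 15 of 23 in Xinβ KO/GFP against WT/GFP, and 19 of 24 in Xinβ KO/aYAP against Xinβ KO/GFP hearts were kept under every alternative, and Col3a1, Col15a1, Col14a1, Col1a2 and Col6a6 were among those kept in all 3. In the uninjected hearts the count of 12 became 32 with sample weights, 30 without Xinβ KO replicates 1 and 4, and 7 to 21 when 1 library was left out (21 without Xinβ KO replicate 4 and 7 without any 1 WT library). The fibrillar median there was -0.43 to -0.14 when 1 library was left out, -0.43 without Xinβ KO replicate 4. For the same groups with the GFP virus the count of 23 became 15 with only the 2 groups compared, and 17 to 27 with 1 library left out. It was 20 to 25 for Xinβ KO/aYAP against Xinβ KO/GFP and 15 to 24 for the interaction. The single call of Xinβ KO/aYAP against WT/aYAP became 0 under quantile normalization, the replicate block, the Ddx3y covariate, the length correction and with only the 2 groups compared, 0 without the limma trend, 2 with sample weights and in DESeq2, and 0 to 1 with 1 library left out. The mean fibrillar minus basement membrane difference of Xinβ KO/aYAP hearts was -0.676 with a pseudocount of 0.1. The cause was not tested for any of these, and the shares called over all tested genes are not given beside these counts. Replicate numbers were not treated as pairs. The deviations of same-numbered libraries correlated at -0.191 to 0.0981 in the uninjected and -0.171 to 0.137 in the injected hearts. Such correlations cannot show whether these libraries came from the same litter. With the replicate block, 8, 21, 23 and 15 members were called in the first 3 comparisons and the interaction. Over all genes, DESeq2 called 1955 against 1044 by limma in Xinβ KO hearts, 24 against 3 in Xinβ KO/aYAP against WT/GFP, 11 against 0 in WT/aYAP against WT/GFP and 71 against 6 in Xinβ KO/aYAP against WT/aYAP hearts. Differences of members near 1 CPM are limited by depth.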
